A study of Mus musculus with 2 samples.

Results

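The 7 genes followed here belong to simple and transitional epithelium: the keratins Krt7, Krt8, Krt14, Krt18 and Krt19, stratifin (Sfn) and claudin 4 (Cldn4). They were chosen by name, and a row was taken where its gene symbol in a deposited count table was one of these 7. Of the 7 genes, 6 are among the 10791 genes that the niche table lists and 5 among the 10814 of the distal table. Krt7, Krt8, Krt18, Krt19 and Sfn are in both, Krt14 is in the niche table only, and Cldn4 is in neither. The tables list only genes above a low total, and the smallest sum of any gene listed was 10 transcript counts for niche and 12 for distal cells, so an unlisted gene is not a count of 0 and gets no value here.

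The study sequenced single cells from mouse lung 7 days after intravenous injection of Labelling-4T1, a mouse mammary carcinoma line whose labelling form hands a fluorescent protein to neighbouring cells. The libraries, 1 of niche cells and 1 of distal lung cells, are both labelled CD45-, that is, without the pan-leukocyte surface protein. All cells therefore came from tumour-injected animals, and no uninjected lung is part of these 2 libraries. Mouse strain, age, number of animals per library, the gates that separated niche from distal cells and whether injected cells were gated out are not given in the sources used here.

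Keratins are intermediate filament proteins that assemble only as pairs of a type II and a type I chain. Krt8 (type II) with Krt18 (type I) is the standard pair of simple epithelia, Krt7 (type II) and Krt19 (type I) are added in many ducts and in alveolar type 1 cells, and Krt14 is a type I keratin of basal cells, whose usual partner is Krt5. Sfn encodes the sigma member of the 14-3-3 family of phosphoprotein adaptors, is restricted to epithelia and is a target of p53. Cldn4 is a tight junction claudin. In the lung, Krt8, Krt18, Krt19, Sfn and Cldn4 are known to mark a transitional state that alveolar type 2 cells, the surfactant-making progenitors of the alveolus, pass through on their way to alveolar type 1 cells after injury.

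After filtering, 1423 niche and 1987 distal cells remained, with 5139368 and 4781222 unique molecular identifiers (UMIs, each 1 counted transcript) and medians of 2975 and 1975 UMIs per cell. With 1 library in each group, differences have no replicate check and no test was made; the intervals given cover counting error only. Levels are CPM, counts per 1000000 UMIs of the 10198 genes in both tables, summed over a set of cells, with exact Poisson 95% intervals. These 3' counts compare 1 gene between sets, and levels of different genes are set side by side without a length correction, which 3' counting does not need. Cells were clustered without the 7 genes and without any other keratin or claudin, so the genes described did not set the clusters. The tables shared 7 barcodes, of which 0 were in niche and 1 in distal epithelial-like cells.

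The niche library held 95 epithelial-like cells and the distal library 253, of very different make-up. Alveolar type 2-like cells numbered 17 (niche) and 215 (distal), and all 10 of their listed markers were detected in both. Alveolar type 1-like cells numbered 8 and 29. The remaining 70 niche and 9 distal cells fell in 1 cluster with general epithelial markers but no single subtype, called the mixed epithelial cluster below. Its leading genes by fold were the secretory genes Scgb1a1 and Scgb3a1, followed by Sfn, Krt18 and Krt8, although these last 3 had not been used to build it. Scgb1a1 came mainly from 4 cells: without them the niche cells of the cluster had 699.7 CPM of it, against 703 CPM over all niche cells without the 4. Malat1, a nuclear non-coding RNA abundant in nearly all intact cells, made up a median of 2.76% of UMIs in niche and 3.87% in distal cells, and cells under 0.1 times their library's median are called low-Malat1. In the mixed cluster, 54 of 70 niche cells were low-Malat1 (median share 0.0477%), against none of the 17 niche and 6 of the 215 distal alveolar type 2-like cells. With a finer clustering (resolution 2), all 54 fell in a 59-cell cluster that no marker list named, so their epithelial name depends on the resolution.

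Krt8 and Krt18, the pair of simple epithelium, lie next to each other on chromosome 15 of mm10, with Krt8 at 101996698-102004482 on the minus strand and Krt18 at 102028180-102032027 on the plus strand, and 23697 bases between them. Krt7 is on the same chromosome at 101411043-101430313 (plus strand). The type I genes Krt19 (100140810-100148665) and Krt14 (100203162-100207548) are on chromosome 11, both on the minus strand, with 54496 bases between them. Sfn is on chromosome 4 at 133600556-133602168 and Cldn4 on chromosome 5 at 134945119-134946934, both on the minus strand. All 7 are protein-coding in the GENCODE annotation, and the 6 listed genes carry the same Ensembl identifiers in the files. A processed pseudogene, Krt8-ps, is annotated on chromosome 7 and is unlisted, so reads it shares with Krt8 could have been counted under Krt8 or dropped.

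The upstream sequence of the 3 genes on which the niche values turn is shown, because Krt8 and Krt18 had closely similar levels across sets of cells and Sfn had the largest niche over distal ratio among epithelial-like cells. The stretches are the part of the 250 bases before the RefSeq start (GRCm38.p6, the patched release of mm10) that lies outside annotated exons, read 5′ to 3′ on the gene's own strand, at chr15:102004483-102004592 for Krt8, chr15:102027966-102028179 for Krt18 and chr4:133602169-133602418 for Sfn.
Krt8: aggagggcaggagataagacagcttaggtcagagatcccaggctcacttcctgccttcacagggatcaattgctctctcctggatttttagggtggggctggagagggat
Krt18: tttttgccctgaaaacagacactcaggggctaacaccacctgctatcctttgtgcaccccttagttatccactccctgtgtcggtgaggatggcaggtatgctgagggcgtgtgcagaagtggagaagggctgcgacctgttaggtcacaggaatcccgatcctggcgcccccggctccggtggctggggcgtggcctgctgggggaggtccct
Sfn: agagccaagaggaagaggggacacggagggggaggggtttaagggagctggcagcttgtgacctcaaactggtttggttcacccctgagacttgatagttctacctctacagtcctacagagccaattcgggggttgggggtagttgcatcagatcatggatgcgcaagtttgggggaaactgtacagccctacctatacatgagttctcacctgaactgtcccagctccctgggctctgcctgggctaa
Searched on both strands for a TATA box (TATAAA), a GC box (GGGCGG) and an AP-1 site (TGANTCA), these 3 stretches held no match, so they carry no capitals. Of 32851 RefSeq promoter windows, 13.6% held TATAAA, 35.7% GGGCGG and 7.81% TGANTCA. Outside the printed Krt8 stretch, inside an annotated exon, TATAAA begins at base -1 of the RefSeq start. The printed stretches run from base -250 to -141 for Krt8, to -37 for Krt18 and to -1 for Sfn. They thus leave out the bases nearest the Krt8 and Krt18 starts. The absence of a match says only that these letters are not in these stretches.

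In alveolar type 2-like cells, Krt8 and Krt18 were detected in most cells of both libraries and the other members in fewer. Krt8 was at 168 CPM in niche cells (16 UMIs, 95% interval 96.3 to 273) and 286 CPM in distal cells (310 UMIs, 255 to 319). Krt18 was at 347 CPM (33 UMIs) and 326 CPM (354 UMIs). These 2 genes gave 1 UMI in the median cell of both libraries, and the highest single cell held 6 Krt18 UMIs among niche and 17 among distal cells.

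Krt7 was at 147 CPM in niche and 83.9 CPM in distal alveolar type 2-like cells. Krt19 was at 31.6 CPM (3 UMIs) in the niche and 76.5 CPM (83 UMIs) in the distal library. Sfn was at 31.6 CPM (3 UMIs) and 41.5 CPM (45 UMIs). Krt14 had 0 UMIs in the 17 niche cells, which allows a level of up to 31.6 CPM.

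No member was called between the 2 alveolar type 2-like sets, where a call needs a 2-fold difference and a counting interval that excludes equality. Over all 6963 genes tested, 4.15% were called higher and 0.761% lower in the niche set, so 0 of 5 is close to the background. The log2 ratios of niche over distal were -0.72 for Krt8 (95% interval -1.59 to -0.04), 0.11 for Krt18 (-0.47 to 0.61) and 0.86 for Krt7 (-0.11 to 1.63). For Krt19 and Sfn the intervals ran from -3.58 to 0.32 and from -2.72 to 1.25. The median over the 5 members was -0.19, and over all genes tested it was 0.29. With 17 niche cells and 3 UMIs of Krt19 and of Sfn, a difference of several-fold in these 2 genes was not detectable at this depth.

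Other genes of the transitional state were as mixed in alveolar type 2-like cells. Of the 9 tested genes of the transitional list without the members, 1 was higher in the niche, Hbegf, a growth factor of the EGF family (116 against 45.2 CPM), and 1 lower, Areg, another EGF family ligand (63.1 against 195 CPM). None of 11 p53 targets without Sfn and none of 7 tight junction genes was called, and 2 of 6 14-3-3 genes without Sfn were higher, Ywhab and Ywhah.

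**Figure D1:**
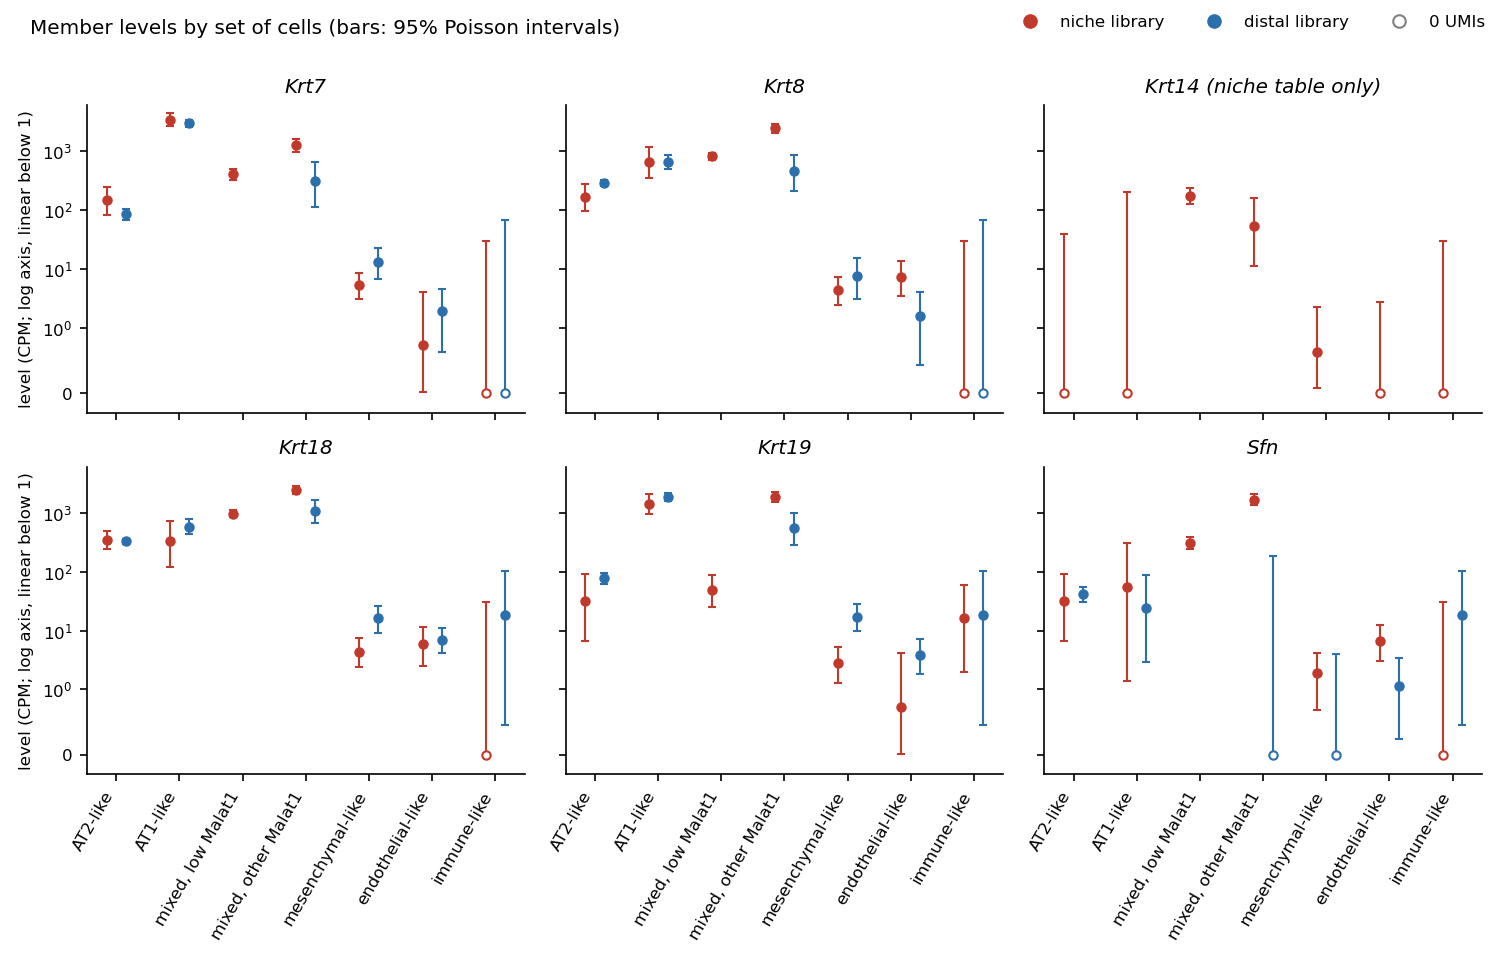
Level in CPM (log axis, linear below 1) of each of the 6 listed genes in sets of niche (red) and distal (blue) cells; points are summed levels, bars are exact Poisson 95% intervals, open points stand for 0 UMIs, and distal mixed cells are drawn as the 7 with other Malat1 shares. Krt7 is highest in alveolar type 1-like cells of both libraries, Krt19 in those or in mixed cells with other Malat1 shares, Krt14 is detected almost only in the mixed cluster, and the mesenchymal-like, endothelial-like and immune-like sets stay under 20 CPM.

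Alveolar type 1-like cells, the thin cells of the gas exchange surface, had Krt7 and Krt19 at higher levels than Krt8 and Krt18, which they also carried. Krt7 was at 2937 CPM in the 29 distal cells (243 UMIs, 28 of 29 cells) and 3420 CPM in the 8 niche cells (62 UMIs, all 8 cells). Krt19 was at 1886 CPM (156 UMIs, 25 of 29 cells) and 1434 CPM (26 UMIs, 7 of 8 cells). The libraries were close for both genes, and 4 of the 8 niche cells were low-Malat1.

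Krt8 and Krt18 were at 653 and 580 CPM in distal and at 662 and 331 CPM in niche alveolar type 1-like cells, the last from 6 UMIs. Sfn was near the detection limit, with 2 UMIs in 29 distal cells (24.2 CPM) and 1 UMI in 8 niche cells. Krt14 had 0 UMIs in the niche cells, which allows up to 165 CPM.

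Within the distal library, the 38 epithelial-like cells other than alveolar type 2-like cells were compared with the 215 alveolar type 2-like cells. These 38 were 29 alveolar type 1-like and 9 mixed cells. Krt7 was at 2366 against 83.9 CPM, 28.1-fold higher, and Krt19 at 1587 against 76.5 CPM, 20.7-fold higher. Krt8 was at 618 against 286 CPM (log2 ratio 1.12, 95% interval 0.70 to 1.50) and Krt18 at 656 against 326 CPM (1.01, 0.61 to 1.38). Sfn gave 2 UMIs against 45, a log2 ratio of -0.82 with an interval from -4.22 to 0.81. Thus 4 of the 5 members were called higher, where 22.4% of 7542 genes were called higher and 3.57% lower.

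With the 29 alveolar type 1-like cells alone in place of the 38, an added comparison, Krt7 (log2 ratio 5.12), Krt19 (4.62) and Krt8 (1.20) were called higher, 3 of 5 members, where 20.6% of 7431 genes were called higher and 4.14% lower. Krt18 was then at 0.84 (95% interval 0.36 to 1.27).

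Surfactant transcripts took a large part of the UMIs of type 2-like cells (Sftpc alone 229584 CPM), and the median log2 ratio over all genes was 0.75. Scaled without the surfactant, secretoglobin, lysozyme, mitochondrial and ribosomal protein genes, Krt7 (4.07) and Krt19 (3.63) kept their calls. Krt8 (0.38) and Krt18 (0.27) lost theirs, so their difference from alveolar type 2-like cells rests on the scaling.

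Junction genes stood beside Krt7 and Krt19 in these distal cells. Of 10 tight junction genes tested, 6 were higher, among them Cgn, the junction plaque protein cingulin (266 against 27.7 CPM), Cldn18 (2071 against 467 CPM) and Ocln (133 against 16.6 CPM), and Cldn3 was lower (85.5 against 727 CPM). Of 11 transitional genes without the members, 8 were higher, among them Ctgf (950 against 0 CPM), Cyr61 (2746 against 35.0 CPM) and Itgb6 (238 against 6.45 CPM), and 2 were lower. Ctgf had 0 UMIs in the alveolar type 2-like set. Ctgf and Cyr61 are targets of the YAP pathway that alveolar type 1 cells are known to express. Among other keratins, Krt23 was lower, at 9.50 against 106 CPM.

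Detection of 2 keratins in the same cell is given as counts, with no comparison against each gene's own share of cells. Both Krt7 and Krt19 were detected in 24 of 29 distal alveolar type 1-like cells, against 16 of 215 distal alveolar type 2-like cells. Both Krt8 and Krt18 were detected in 17 of 29 and in 95 of 215. The ratio of type II (Krt7 and Krt8) to type I (Krt18 and Krt19) UMIs was 0.92 in distal alveolar type 2-like cells (95% interval 0.80 to 1.05) and 1.46 in distal alveolar type 1-like cells (1.21 to 1.75). Over Krt7, Krt8, Krt18 and Krt19 alone, type II and type I transcripts were thus near equal in number in distal type 2-like cells. Distal type 1-like cells had more type II. Other keratins were not counted, among them Krt23, with 115 UMIs in distal type 2-like cells.

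In the 54 low-Malat1 niche cells of the mixed cluster, Krt8 and Krt18 were the leading members. Krt8 was at 814 CPM (198 UMIs in 44 of 54 cells, at most 18 in 1 cell) and Krt18 at 966 CPM (235 UMIs in 41 cells, at most 18). Krt7 was at 403 CPM (98 UMIs in 27 cells). No single cell decided these 3 values.

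Krt14 was at 173 CPM in these cells (42 UMIs in 15 cells, at most 10 in 1 cell), and they held 89.4% of the 47 Krt14 UMIs of the niche library. Krt5, its usual partner, and the other basal cell markers Trp63, Krt15, Krt17 and Ngfr are unlisted. Krt19 was low, at 49.3 CPM (12 UMIs in 8 cells). Sfn was at 312 CPM (76 UMIs in 13 cells), but 38 of these UMIs, 50.0%, lay in 1 cell.

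The 54 cells were not uniform. In 4 of them Scgb1a1, the main secretory protein of club cells, was over 20% of UMIs. These 4 held 0 UMIs of Krt7, Krt8, Krt14 and Krt19, and 1 each of Krt18 and Sfn. The other 50 cells each held at least 10 UMIs of Lgals1 (median 77), which encodes galectin 1, and without the 4 cells Krt8 was at 887 CPM and Krt18 at 1048 CPM.

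Outside the 4 Scgb1a1-rich cells, lung identity was weak in the low-Malat1 cells. Nkx2-1, the transcription factor that defines lung epithelium, had 0 UMIs in the 54 cells, which allows up to 12.3 CPM. It was at 295 CPM in niche and 270 CPM in distal alveolar type 2-like cells. The 4 Scgb1a1-rich cells were among those at 0, but at a median of 5102 UMIs per cell, 4 cells are too few to place their Nkx2-1 level. Epcam was at 304 CPM (74 UMIs in 19 of 54 cells), against 189 CPM in niche alveolar type 2-like cells. The 4 listed general epithelial markers, Epcam among them, went the other way in sum, at 662 against 1252 CPM. Of 12 fixed mammary epithelial markers, 4 are listed in the niche table and all 4 were detected, with 23 UMIs in sum (94.6 CPM). This sum was within the range of other niche sets: 63.1 CPM in alveolar type 2-like, 98.5 in mesenchymal-like, 138 in immune-like and 397 in the other mixed cells. The genes behind it differed. Areg gave all 6 UMIs in niche alveolar type 2-like cells and 16 of 22 in the other mixed cells. In the low-Malat1 cells it gave 2 of 23, the rest being Gata3, Trps1 and Wnt10a. Niche alveolar type 1-like cells had 0 UMIs of all 4. Of 12 mesenchymal markers, 8 were detected, at 510 CPM in sum, against 7 at 453 CPM in niche alveolar type 2-like cells. Pdgfrb, Tcf21, Cspg4 and Cox4i2 were at 0, and Ptprc, which encodes CD45, was at 0. Whether these cells are lung cells or injected 4T1 cells was not tested.

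The other 91 low-Malat1 niche cells were not epithelial-like (84 mesenchymal-like, 5 endothelial-like and 2 immune-like), so few keratin UMIs are usual for their types at any Malat1 share. They held 3 Krt8, 1 Krt7, 1 Krt14 and 2 Sfn UMIs and 0 of Krt18 and Krt19. For Krt18 a count of 0 allows up to 12.7 CPM, against 966 CPM in the low-Malat1 cells of the mixed cluster. In the distal library, 9 low-Malat1 epithelial-like cells, 6 of them alveolar type 2-like, had Krt8 at 169 CPM (6 UMIs) and Krt18 at 282 CPM (10 UMIs), levels whose intervals include those of all distal alveolar type 2-like cells.

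**Figure D2:**
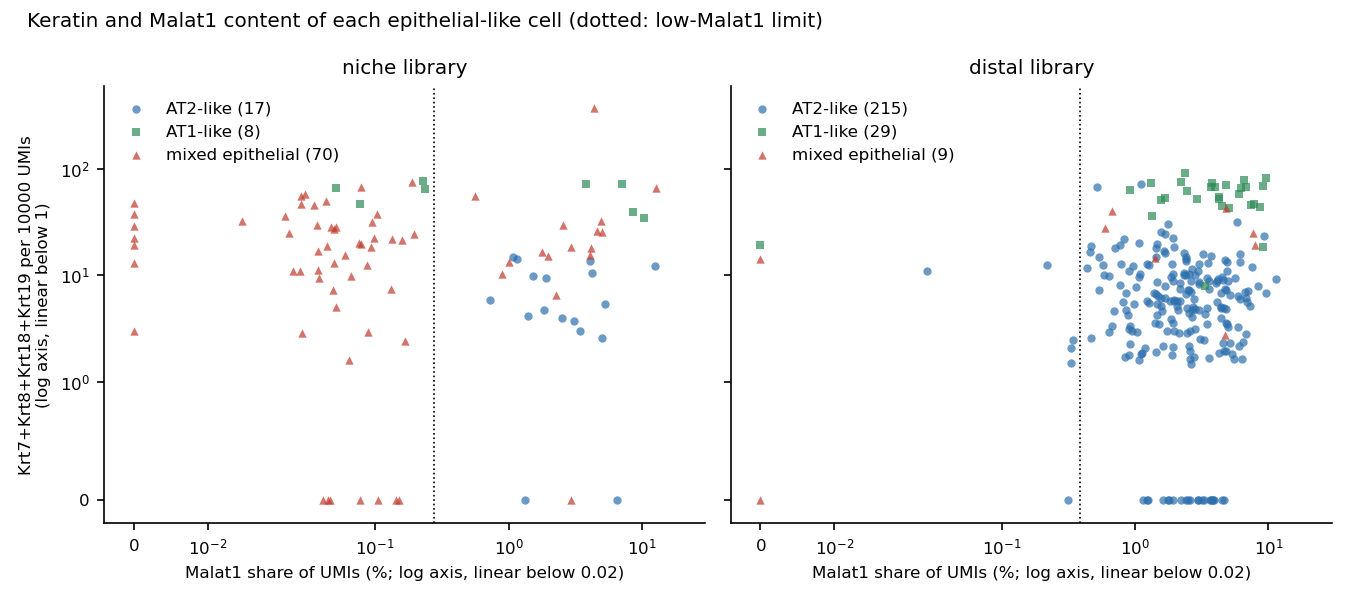
Each point is 1 epithelial-like cell, with its Malat1 share of UMIs in percent on the x axis (log, linear below 0.02) and its UMIs of Krt7, Krt8, Krt18 and Krt19 per 10000 UMIs on the y axis (log, linear below 1); the dotted line is the low-Malat1 limit, 0.276% for niche and 0.387% for distal cells. Mixed niche cells (red) left of the line span a similar keratin range to those right of it, except for 1 cell at 369 per 10000.

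The 16 niche cells of the mixed cluster with other Malat1 shares gave higher sums, but 1 cell set them. Summed, Krt8 was at 2416 CPM, Krt18 at 2452, Krt7 at 1244, Krt19 at 1839 and Sfn at 1677 CPM. A single cell held 98 of the 134 Krt8, 102 of the 136 Krt18, 55 of the 69 Krt7, 85 of the 102 Krt19 and 54 of the 93 Sfn UMIs. It had 9220 UMIs, a Malat1 share of 4.38%, 31 Epcam, 52 Lgals3 and 14 Areg UMIs, 1 Nkx2-1 UMI and 0 Krt14 UMIs, and it was not called a doublet. Without it, the other 15 cells had Krt8 at 778 CPM, Krt18 at 735, Krt7 at 303, Krt19 at 367 and Sfn at 843 CPM.

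These 15 cells held several kinds, grouped here after their values were seen and described with no comparison. In 6 cells with at least 7 UMIs of Cyp2f2, an enzyme of club cells, Sfn was detected in all 6 (38 UMIs, 1 to 16 per cell), Krt18 in all 6 (14 UMIs) and Krt8 in 2 (2 UMIs). In 5 cells with at least 5 UMIs of Tppp3, a marker of ciliated cells, Krt8 and Krt18 were detected in all 5 (15 and 10 UMIs) and Sfn in none. In 3 cells with at least 10 Lgals1 UMIs, Krt8 gave 19 UMIs, Krt14 gave 3 and Krt19 gave 0, with 0 UMIs of Nkx2-1. Sfn and Krt8 thus lay mostly in different cells of this group.

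**Figure D3:**
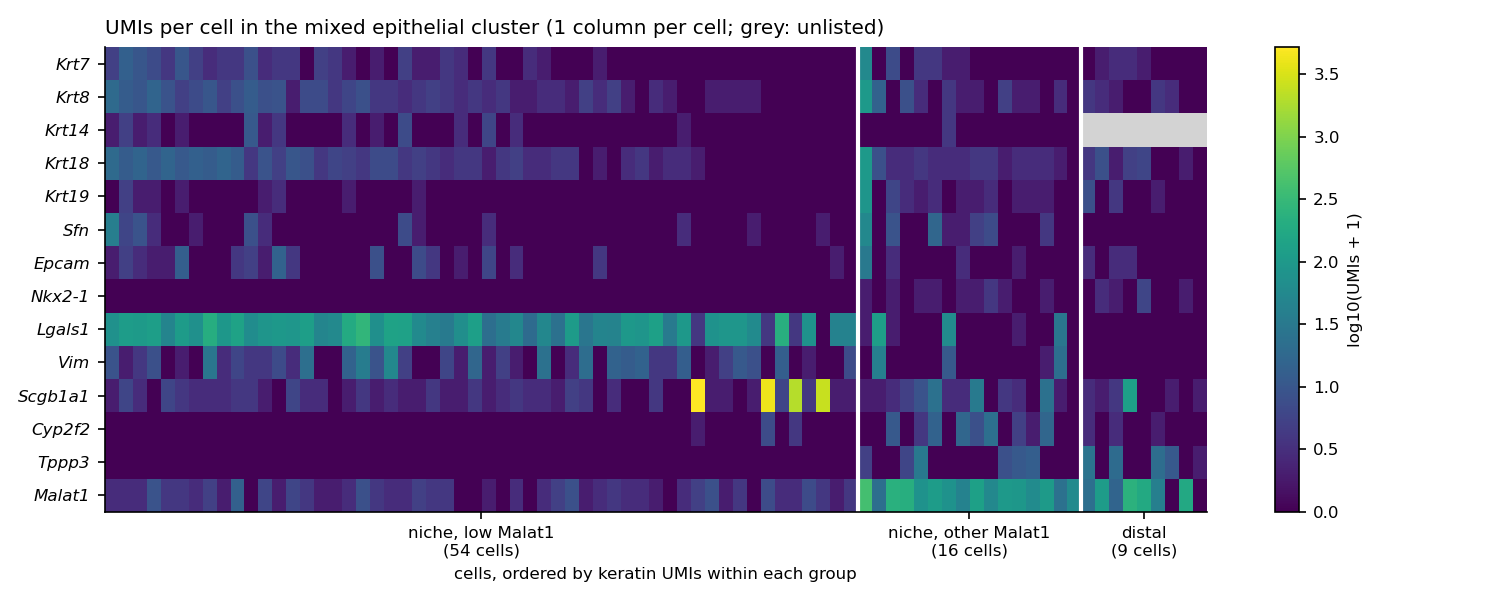
Each column is 1 cell of the mixed epithelial cluster, coloured by log10(UMIs + 1) of the gene in each row and ordered by keratin UMIs within the 54 low-Malat1 niche, 16 other niche and 9 distal cells; grey marks Krt14, unlisted in the distal table. Lgals1 is high in 50 of the 54 low-Malat1 cells and Nkx2-1 at 0 in all 54, the 4 cells with most Scgb1a1 hold few keratin UMIs, and 1 cell leads the second group.

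Low-Malat1 and other niche epithelial-like cells were compared within the niche library, 58 against 37 cells. Krt14 was higher in the low-Malat1 cells, at 168 CPM (42 UMIs) against 18.5 CPM (3 UMIs), a log2 ratio of 2.98 (95% interval 1.54 to 5.52). Krt19 was lower, at 76.2 against 764 CPM (-3.29, -4.11 to -2.62). Krt8 (810 against 973 CPM), Krt18 (958 against 1053), Krt7 (493 against 739) and Sfn (305 against 597) were not called. Thus 1 of 6 members was called higher and 1 lower, where 10.7% of 3935 genes were called higher and 21.0% lower.

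This comparison also turned on the 1 cell with most keratin. Without it, Krt8 (log2 ratio 1.04, 95% interval 0.63 to 1.49) and Krt18 (1.08, 0.70 to 1.50) were called higher in low-Malat1 cells beside Krt14 (2.90). Krt19 stayed lower (-1.72) and Krt7 (0.21) and Sfn (0.11) were not called. The groups also differed in kind, since 17 of the 37 other cells were alveolar type 2-like. Median depth was 4085.5 UMIs in low-Malat1 and 4276 in other cells, and the median mitochondrial share was 1.96% and 3.10%. The part of these in the differences was not tested.

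Confined to the mixed cluster, an added comparison of the 54 and 16 niche cells gave Krt14 higher (log2 ratio 1.47, 95% interval 0.03 to 4.01) and the other 5 lower. There 6.37% of 2842 genes were called higher and 14.9% lower. Without the highest keratin cell, only Krt19 and Sfn were called lower and none higher. Krt8, Krt18 and Krt7 were then at log2 ratios of 0.049, 0.38 and 0.37.

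Beside the members, all 5 tested tight junction genes were lower in low-Malat1 than in other niche epithelial-like cells, among them Cldn3 (40.1 against 585 CPM), Cldn18 (48.1 against 616 CPM) and Cldn7 (72.2 against 345 CPM). The median of the 5 was -2.23, against -0.21 over all genes tested. Of 5 epithelial identity genes, 0 were higher and 3 lower: Cldn7, Cdh1 (12.0 against 123 CPM) and Spint2 (317 against 714 CPM). Of 7 lung epithelial identity genes, 6 were lower and Scgb1a1 was higher, but the latter came from the 4 Scgb1a1-rich cells: without them Scgb1a1 was at 423 CPM (97 UMIs) against 1213 CPM in other cells. Of 19 cell cycle genes, 10 were higher, among them Birc5 (273 against 24.6 CPM) and Cenpa (232 against 24.6 CPM), both needed for chromosome segregation. Of 7 p53 targets without Sfn, 3 were lower, among them Cdkn1a, the cell cycle inhibitor p21 (32.1 against 142 CPM). Of 12 transitional genes without the members, 1 was higher (Plaur, the urokinase receptor) and 6 were lower. Vim, the mesenchymal filament protein vimentin, was higher, at 1511 against 456 CPM.

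Over all cells, only Sfn differed at least 2-fold between the libraries. It was at 36.9 CPM in the niche (188 UMIs) and 10.7 CPM in the distal library (51 UMIs), a log2 ratio of 1.77 (95% interval 1.33 to 2.26). Where these UMIs lay differed: 89.9% of niche Sfn UMIs were in the mixed cluster and 88.2% of distal ones in alveolar type 2-like cells. Krt8 (75.3 against 81.1 CPM) and Krt18 (84.7 against 96.0 CPM) were close, and Krt7 (51.2 against 75.0) and Krt19 (30.4 against 58.2) were lower in the niche by less than 2-fold. Of all 10198 genes, 5.16% were called higher and 6.08% lower. Without the highest keratin cell, which held 54 of the 188 niche Sfn UMIs, the Sfn ratio was 1.29, and Krt19 was then called lower (-2.07). A low-Malat1 cell of the mixed cluster held another 38 Sfn UMIs. With both cells left out, the niche Sfn level is less than 2-fold above the distal one, so the call rests on these 2 cells.

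Among epithelial-like cells, 4 of the 5 members were higher in the niche, where 12.5% of 8068 genes were called higher and 10.2% lower. Sfn was at 420 against 39.5 CPM, 10.6-fold higher (log2 ratio 3.40, 95% interval 2.94 to 3.91). Krt18 was at 996 against 355 CPM (1.49, 1.29 to 1.69), Krt8 at 874 against 315 CPM (1.47, 1.26 to 1.68) and Krt7 at 590 against 286 CPM (1.05, 0.80 to 1.29). Krt19 was at 347 against 210 CPM (0.73, 0.42 to 1.03) and was not called. Dominant transcripts took unlike parts of the 2 sums, so the scaling enters these ratios. Sftpc was at 40539 CPM in niche and 209498 CPM in distal epithelial-like cells, and Scgb1a1 at 34697 and 1090 CPM.

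These ratios compare 70 mixed cells of 95 with 9 of 253, while no member was called within alveolar type 2-like cells, so differences in make-up and in level within a type cannot be told apart here. Without the highest keratin cell, Sfn (2.89), Krt18 (1.11) and Krt8 (1.05) stayed above 2-fold. Krt7 (0.71) fell under it and Krt19 changed sign (-0.54). At finer clustering, with the 54 low-Malat1 cells outside the 49 niche epithelial-like cells, all 5 members were called higher. The share over all genes at that setting is not given here. Other cells also changed sets there, with 24 niche and 21 distal cells named mixed, so it is not the same set less the 54. That setting did not leave out the highest keratin cell. At the main clustering, niche epithelial-like cells with other Malat1 shares were also summed without that cell. Krt8 was then at 391.7 CPM, Krt18 at 450.4, Krt7 at 424.3 and Krt19 at 254.6. These keratins were less than 2-fold above the levels of distal epithelial-like cells. Sfn, at 280.7 against 39.5 CPM, was more than 2-fold above. Of the 43 Sfn UMIs behind this value, 38 lay in the 6 mixed cells with at least 7 Cyp2f2 UMIs.

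**Figure D4:**
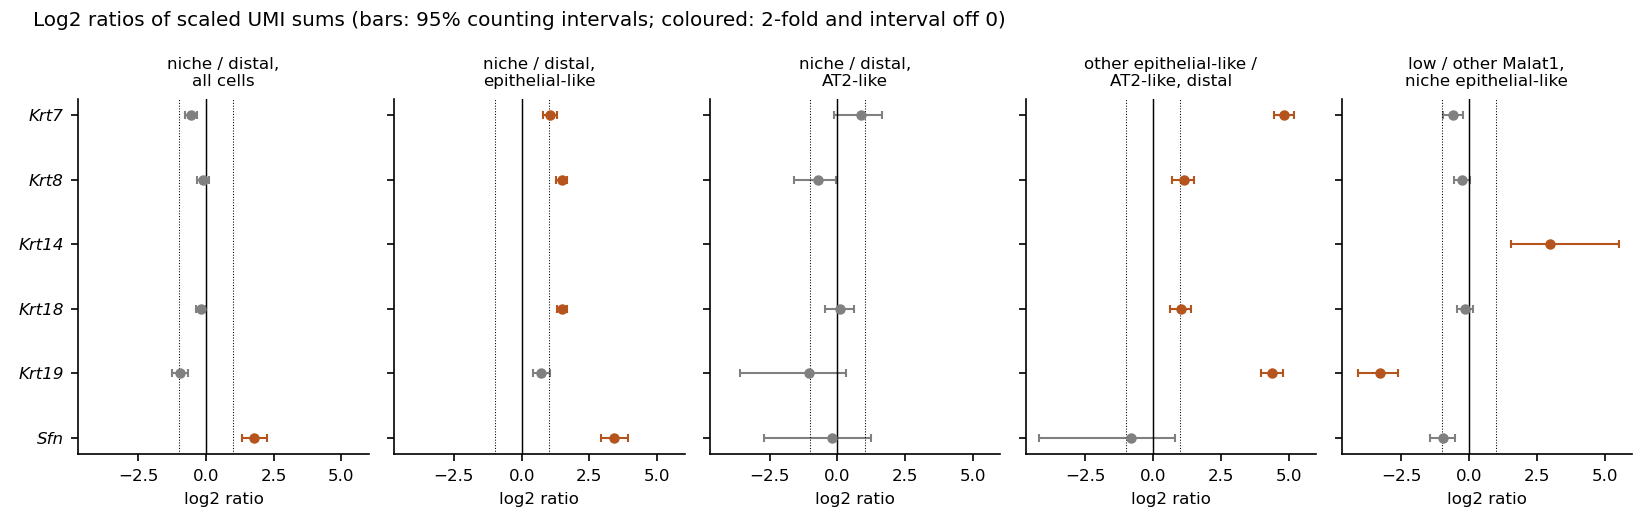
Log2 ratios of scaled UMI sums for the members in 5 comparisons (columns), with exact 95% counting intervals; coloured points reach 2-fold (dotted lines) with an interval off 0, grey points do not. The niche epithelial-like ratios lie right of 0 while those of alveolar type 2-like cells scatter around it, and Krt14 and Krt19 lie on opposite sides in the comparison by Malat1 share.

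The other lists between niche and distal epithelial-like cells did not all go with the members. Of 8 tight junction genes, 0 were higher and 3 lower, among them Cldn3 (255 against 671 CPM) and Cldn18 (272 against 609 CPM). Of 12 transitional genes without the members, 5 were higher, among them Fn1 (82.6 against 4.20 CPM), Lgals3 (520 against 121 CPM) and Plaur (58.3 against 7.56 CPM), and Areg was lower (58.3 against 178 CPM). The median of these 12 was 0.42, against -0.05 over all genes. Of 12 p53 targets without Sfn, 2 were higher (Perp and Bax) and 2 lower (Btg2 and Trp53inp1). Of 6 14-3-3 genes without Sfn, Ywhaq alone was higher (396 against 190 CPM). Of 13 cell cycle genes, 12 were higher. Among filament genes, Vim was higher, at 1095 against 30.3 CPM.

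Shares of cells with at least 1 UMI stood beside these levels. Krt8 was detected in 73.7% of niche and 64.4% of distal epithelial-like cells, Krt18 in 75.8% and 66.0%, Krt7 in 51.6% and 36.4%, Krt19 in 29.5% and 30.4%, and Sfn in 25.3% and 13.0%, at median depths of 4118 and 5142 UMIs. In mesenchymal-like and endothelial-like cells, which should lack these genes, each of the 5 was detected in 0.00% to 1.81% of cells, at median depths from 1715.5 to 3557 UMIs. After thinning every cell to 1200 UMIs, which left out 0 niche and 3 distal cells, Krt8 was detected in 45.3% of niche and 28.4% of distal epithelial-like cells and Sfn in 11.6% and 3.20%. The thinned shares of Krt8 and Sfn were thus further apart, relative to each other, than the unthinned ones.

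In 10 sets of at least 10 cells, Krt8 and Krt18 had the most similar levels of all 1698 genes ranked for Krt8 (Pearson r of log2(CPM + 10) 0.98, a description, since sets share 2 libraries and the epithelial sets drive it). Next for Krt8 were Rab25, an epithelial vesicle traffic GTPase (0.98), Tmem238 (0.96), Krt7 (0.94) and Epcam (0.92). For Krt18 they were Rab25 (0.97), Cldn7 (0.94), Tmem238 (0.94) and Epcam (0.94). For Sfn they were 2700094K13Rik (0.95), Cyp2f2 (0.91), Mrpl57 (0.91), Dnajc15 (0.91) and Atp5g3 (0.89), none of them a keratin, and its r with Krt8 was 0.82.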

How the data were processed

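Counts were deposited by the authors as 1 table of raw UMI counts per library, genes by cell barcodes, with no normalization. Chromium Single Cell 3′ chemistry was used, per the labels' protocols, and the submitters' processing notes name the mm10 genome, Cell Ranger 2.1.1 and R 3.4.1. Cell and gene filters are not given in the sources used here. A 3′ count does not grow with transcript length.

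Cells needed 500 or more genes and no more than 10% mitochondrial UMIs (50 niche and 9 distal barcodes left out). After scaling each cell to 10000 counts and taking logs, 2000 variable genes, without members, keratins and claudins, 20 principal components and 15 neighbours were clustered with the Leiden method at resolution 1 (scanpy 1.11.5, igraph 0.11.9, Python 3.11.15). The 20 clusters were named "like" a type from marker lists, needing 3 markers each found in 25% of a cluster. Doublets called with Scrublet (10 niche and 27 distal cells) were kept.

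UMIs were summed per set and scaled to the genes in both tables. Log2 ratios had 0.5 UMI added, with exact conditional binomial 95% intervals, over genes with at least 10 UMIs in both sets together. A count of 0 was read as allowing 3 UMIs. Shares have exact Clopper-Pearson 95% intervals. The interval step was tested on simulated counts. With 1 library per group there was no p-value and no standard error, and cells were not replicates.

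The 7 genes and all lists were chosen with earlier results of these data known. Named list genes are up to 3 per list and direction with the interval bound farthest from 0 (not all are given), with Malat1, Epcam, Nkx2-1 and Sftpc. The genes that describe kinds of mixed cells, the single cells left out and the comparisons of alveolar type 1-like cells and within the mixed cluster were added after values were seen.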

Additional observations from a re-analysis of the deposited data

How the results depend on the processing

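No paired analysis was possible because each group is 1 library without a replicate number. Of 482 single-gene ratios under the alternatives, 396 stayed within the counting interval of the reported value, 74 moved and 12 changed sign. Of 102 counts and shares, 83 stayed within 1.5 times or the interval. The count of members higher in niche epithelial-like cells was 3 to 5 in every alternative, and that in alveolar type 2-like cells was 0. Shares over all genes under the alternatives are not given here. No alternative left out both the low-Malat1 cells and the highest keratin cell. In distal epithelial-like cells other than alveolar type 2-like cells, 2 members in place of 4 were higher at resolution 2 and when scaled without dominant genes. Between low-Malat1 and other niche epithelial-like cells, 3 in place of 1 were higher without the highest keratin cell and 3 without it and the Scgb1a1-rich cells. At resolution 2, where 4 low-Malat1 cells remained in the class, the Krt19 ratio was 0.86.

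Within the mixed cluster, 0 in place of 1 members were higher with members, keratins and claudins used in clustering, with doublets removed, after thinning to 1200 UMIs, without the highest keratin cell and without both kinds of cells. With at least 1000 genes per cell, 38 niche cells were left in the cluster, 34 of them low-Malat1, and the ratios were -0.62 for Krt14, 0.43 for Krt18, 0.69 for Krt19, 1.98 for Krt7 and 1.76 for Sfn. Without the highest keratin cell they were 0.38 for Krt18, 0.37 for Krt7 and 0.049 for Krt8, and without both kinds of cells 0.49, 0.49 and 0.17. The cause of the changes was not tested, other than that fewer cells entered.

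Thinned to 1200 UMIs, the shares of niche epithelial-like cells with a UMI were 32.6% for Krt7, 45.3% for Krt8, 52.6% for Krt18, 13.7% for Krt19 and 11.6% for Sfn. The distal shares were 17.6%, 28.4%, 32.4%, 13.6% and 3.20%. Depth limits the 17 niche alveolar type 2-like cells, where 3 UMIs each stand behind Krt19 and Sfn, and the 8 niche alveolar type 1-like cells, where 1 UMI stands behind Sfn.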

Other observations

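Keratin UMIs outside epithelial-like cells were few and sat partly in single cells. Of the 54 UMIs of Krt7, Krt8, Krt18 and Krt19 in 781 niche mesenchymal-like cells, 13 were in 1 cell, and 1 of the 781 cells held all 4 keratins. In 400 distal mesenchymal-like cells, 15 of 50 such UMIs were in 1 cell. Among the 36 low-Malat1 distal cells that were not epithelial-like, 1 cell held 15 of the 16 keratin UMIs.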
